A study of Mus musculus with 6 samples.

Results

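The constitutive proteasome subunits were taken as every listed gene whose mouse symbol begins with Psma, Psmb, Psmc or Psmd and ends in a number, leaving out the interferon-inducible Psmb8, Psmb9 and Psmb10. This gave 35 of the 14298 genes listed, with 8 core alpha genes (Psma), 7 core beta genes (Psmb), 6 ATPase genes (Psmc) and 14 Psmd genes. One more symbol of this form in the name table, Psmb11, was not analysed here. The 14 Psmd genes comprise 8 lid subunits, 3 subunits of the base that are not ATPases (Psmd1, Psmd2 and Psmd4) and 3 assembly chaperones (Psmd5, Psmd9 and Psmd10) that help to build the regulatory particle and are not part of the finished one.

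The libraries were made from polyA RNA of aortic arches from adult mice, strain C57/BL6 per the labels. All animals were ApoE-/-, lacking apolipoprotein E and so prone to atherosclerosis, and all carried RBPJflox/flox, meaning that the gene Rbpj, whose product binds DNA for Notch signalling, can be cut out by a recombinase. Knockout mice (libraries S595, S598 and S599) had Cdh5-CreERT in addition, which is such a recombinase, switched on by tamoxifen and driven by the promoter of an endothelial cadherin gene. Control mice (libraries S591, S592 and S594) had no recombinase, so its presence and the deletion cannot be told apart. Both groups received tamoxifen for 1 week at 8 weeks of age, then a high-fat diet for 6 weeks. The recombinase acts in endothelium while RNA came from the whole arch, and in whole tissue less RNA per cell and fewer cells of a type cannot be told apart. The submitters count 3 mice of each genotype, but the tables do not tie a library to an animal, so p-values measure the spread between these libraries.

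The proteasome degrades proteins tagged with ubiquitin. Its barrel-shaped core is built from rings of alpha subunits, which form the gate, and rings of beta subunits, of which Psmb5, Psmb6 and Psmb7 carry the proteolytic sites. A regulatory particle caps the barrel: a ring of ATPases unfolds the substrate, the lid removes ubiquitin through Psmd14, and Psmd4 is one of the receptors that bind ubiquitin chains. Cells keep the subunits in balance partly by transcription, through the factor encoded by Nfe2l1, which acts on antioxidant response elements in proteasome gene promoters when proteasome activity falls short. In immune cells and under interferon, Psmb8, Psmb9 and Psmb10 take the places of Psmb5, Psmb6 and Psmb7.

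Promoter sequence was compared because it is a feature that the choice of members did not use. RefSeq promoters (GRCm38.p6, from 250 bases before to 50 after the gene start) matched 28 of the 35 members by symbol. The core of the antioxidant response element, TGACNNNGC, was found on either strand in 5 of the 28 members (17.9%), against 14.0% of the 27025 genes in the promoter table. The ETS motif CCGGAAGT was found in 6 of 28 (21.4%) against 4.31%, and the NF-Y motif CCAAT in 11 of 28 (39.3%) against 41.1%. None of these motifs contains another. The shares were set against every gene in the promoter table, and not against genes of like level. Stretches before the gene start are shown, with the motif in capitals, for the 3 genes whose antioxidant response element core lies nearest to the start, and for Psmd6 as 1 example of the ETS motif. They are from Psmb5 (chr14:54618010-54618066, minus strand), Psmb6 (chr11:70525324-70525356, plus strand) and Psmd9 (chr5:123228135-123228189, plus strand) for the first, and from the lid gene Psmd6 (chr14:14120959-14121014, minus strand) for the second.
Psmb5: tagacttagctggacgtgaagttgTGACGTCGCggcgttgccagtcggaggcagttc
Psmb6: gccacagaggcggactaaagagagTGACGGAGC
Psmd9: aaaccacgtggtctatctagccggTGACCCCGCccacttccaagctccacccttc
Psmd6: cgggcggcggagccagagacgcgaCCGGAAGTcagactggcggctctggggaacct
The motif begins 47 bases before the gene start in Psmb5, 9 in Psmb6, 31 in Psmd9 and 45 in Psmd6. The gene start is RefSeq's: GENCODE M21 exons of the same gene begin further upstream and cover the last 13 bases shown for Psmb5 and the last 26 for Psmd6, including 2 of the motif in Psmd6. Of these genes, Psmb5 and Psmb6 had knockout means of 0.799 and 0.858 times the control mean, while the ratio was 0.992 for Psmd9 and 0.916 for Psmd6.

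Most proteasome transcripts stood slightly lower in the knockout arches, by amounts close to the spread between libraries. The level of a gene is given below in CPM, its reads scaled to library size. A log2 fold change is the knockout mean less the control mean of log2(value + 1). The log2 fold change was negative for 32 of the 35 members, against 52.2% of all genes. The 32 include Psmd7 (−0.0033) and Psmd9 (−0.0022), both near 0. All members were read in the same 6 libraries, so their signs are not independent of each other. The 3 with a positive value were Psma3, Psma8 and Psmd5, the first named here after its values were seen. The median over the members was −0.12, against −0.02 over all genes, and the members ran from −0.44 (Psmd10) to 0.06 (Psma8). By limma with Benjamini-Hochberg adjustment over all genes, 0 of the 35 members were called at 0.05, where 0.0210% of all genes were. The smallest adjusted p of a member was 0.163, and edgeR's quasi-likelihood test and DESeq2 called 0 members as well. DESeq2 called 894 of all genes and edgeR 0, against 3 by limma.

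At an unadjusted p of 0.05, 5 members were lower, against 12.0% of all genes, and 0 were higher, against 8.04%. The share of members that were lower was 14.3%, close to that of all genes. The 5 were Psmb5, Psmd1, Psmd2, Psmd8 and Psmd10, of which Psmd1 is named after its values were seen. The count was 3 (Psmd2, Psmd8 and Psmd10) by DESeq2, after median-ratio or quantile scaling, and without the variance trend. Over all genes that count went from 1710 to 1482 by DESeq2, 1605 after median-ratio scaling and 1654 without the variance trend. Quantile scaling also moved the balance of all genes, from 1710 lower and 1150 higher to 1430 lower and 1540 higher. All 3 knockout libraries lay below all 3 controls for 7 members (20%), against 14.2% of all genes, and above them for 0 members, against 11.3%. The 7 were Psma5, Psmd1, Psmd2, Psmd6, Psmd8, Psmd10 and Psmd11.

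**Figure D1:**
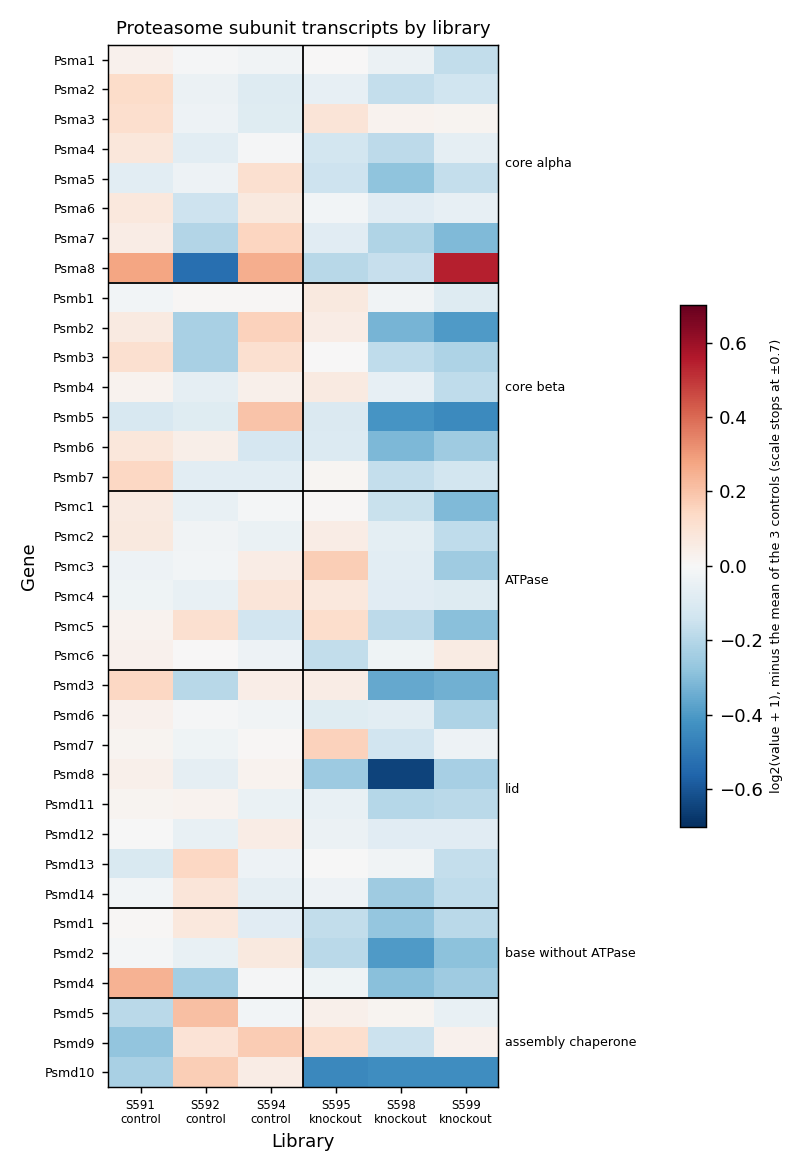
Heat map of log2(value + 1) for the 35 members (rows, by class) in the 6 libraries (columns), each as the difference from the mean of the 3 controls. Blue cells gather in knockout S598 and S599, while S595 is near the controls for most core and ATPase genes, and Psma8, at about 1 CPM, varies most.

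The precision was high for these genes. Between 69 and 1835 reads per library lay behind each member other than Psma8. The standard error of the log2 fold change was 0.09 to 0.17 for those members and 0.33 for Psma8. The 95% interval of the fold change lay wholly within 1.5-fold in either direction for 30 of the 35 members, against 45.0% of all genes. Without Psma8 the share was 88.2% of 34 members, against 62.4% of the 8039 genes in their level range (means from 15.2 to 197 CPM). That range starts at percentile 38.1 of all genes while the median member stood at 81.0, so levels were not matched. The part of level in the precision was not tested. The median standard deviation between libraries of a group was 0.10 on the log2 scale for the 34 members without Psma8, against 0.16 for the genes in that level range. The exceptions to the 1.5-fold bound were Psma8, Psmb2, Psmb5, Psmd8 and Psmd10.

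The group difference varied with the libraries included. Knockout S595 was the highest of the 3 knockout libraries for 29 of the 35 members, while S598 and S599 were each the lowest for 16. The shares of all genes for these places were not computed, so the counts do not set the members apart from other genes. S598 lay below all controls for 26 members and S599 for 27, against 34.9% and 31.5% of all genes. S595 lay below all controls for 9 members, against 30.7% of all genes. It lay above all controls for 5, where the share of all genes was not computed. With S598 and S599 left out, so that S595 alone stood for the knockout and was assumed to vary like the controls, the median of the members was −0.02 and 0 were lower at an unadjusted p of 0.05. Without S595 the median was −0.15 and 7 were lower, and without S598 it was −0.10 and 1 was lower (Psmd10). Leaving out a control mattered too, with 2 lower without S594 (median −0.13), 3 without S592 and 4 without S591. Over all genes the same count went from 1710 to 905 without S598 and S599, 1676 without S595, 1038 without S598, 1036 without S594, 1346 without S592 and 1937 without S591.

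**Figure D2:**
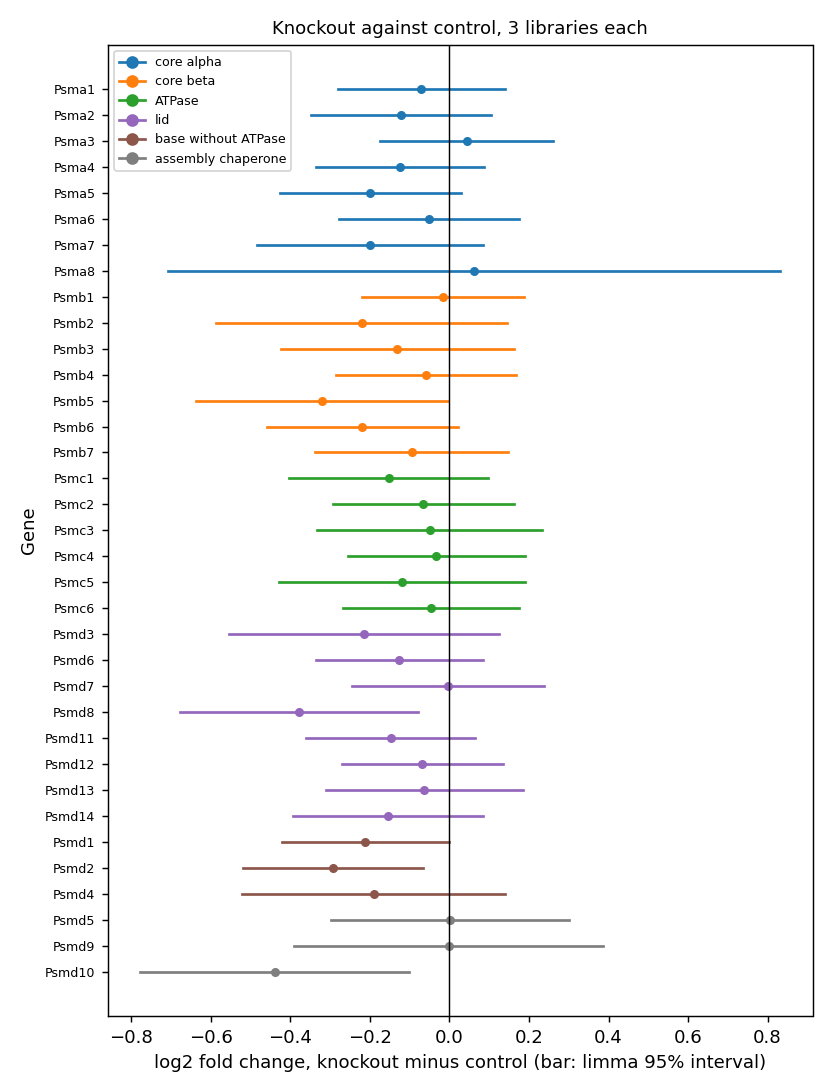
Log2 fold change of each member (points, x axis, knockout minus control) with its limma 95% interval (bars), coloured by class. Most points lie a little left of 0 with intervals that include it, and the intervals of Psmb5, Psmd1, Psmd2, Psmd8 and Psmd10 end below 0 before adjustment.

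Marker transcripts of other cell types differed between libraries as well, though no macrophage, smooth muscle or T cell marker passed the limma threshold (smallest adjusted p = 0.107, 0.147 and 0.248). Macrophage markers summed to between 4590 and 7891 CPM in the controls and between 1906 and 4792 in the knockouts, with 8 of 8 markers negative and none without reads in any library. Lyz2 made up most of that sum, with a control mean of 5072 of 6216 CPM. All 8 were lower at an unadjusted limma p of 0.05, against 12.0% of all genes, with a median log2 fold change of −1.29. The groups were apart for 6 of the 8, against 14.2% of all genes. Smooth muscle markers summed to between 11914 and 20719 in the controls and between 20809 and 28888 in the knockouts (6 of 6 positive, none without reads). Of the 6, 3 were higher at an unadjusted limma p of 0.05, against 8.04% of all genes. T cell and thymocyte markers summed to 10.9 to 15.8 in the controls, while the knockouts read 9.28 (S595), 144 (S598) and 40.6 (S599), with 6 of 6 positive and none without reads. Markers of dividing cells summed to 58.5 to 136 and 55.2 to 76.6, with 5 of 5 negative. Both airway markers were higher, with sums of 1.95 to 7.06 in the controls against 56.3 to 76.2 in the knockouts. They did pass the limma threshold (adjusted p = 0.0317 for each), and were 2 of the 3 genes called over all genes. Brown fat markers summed to 329.9 to 1234 and 303 to 554, with Elovl3 at 0 reads in S598, and striated muscle markers to 9.79 to 60.6 and 18.2 to 39.6, with Myh7 at 0 reads in S598. The part of these shifts in the proteasome values was not tested. Endothelial markers summed to 642 to 654 in the controls and 523 to 853 in the knockouts. Depth over the listed genes was 5904504 to 10072495 reads per library. The targeted gene Rbpj read 189 ± 13.2 CPM in controls and 193 ± 21.7 in knockouts (mean ± SD, n = 3 each), with a limma adjusted p of 0.923, and whole-arch RNA is a weak check of a deletion made in endothelium.

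The core alpha genes, whose products form the outer rings and the gate, differed little. Their summed level was 688, 624 and 661 CPM in controls S591, S592 and S594, and 640, 605 and 607 in knockouts S595, S598 and S599. Control S592 lay below knockout S595, so the groups overlapped. The median log2 fold change of the 8 genes was −0.10, with 6 negative and 2 positive. It was −0.06 without control S591 and −0.15 without control S592. None of the 8 had an unadjusted p under 0.05 by limma.

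Psma5 was the alpha gene with the smallest p. It read 66.0, 67.9 and 75.4 CPM in the controls and 62.9, 57.0 and 61.9 in the knockouts. Every knockout value was under every control value, by a narrow margin between S595 and S591. The log2 fold change was −0.20 (SE 0.10, limma adjusted p = 0.307). Psma7 read 84.7, 70.6 and 90.6 in the controls and 77.2, 70.2 and 65.5 in the knockouts, a log2 fold change of −0.20 (SE 0.12, adjusted p = 0.404). Here the lowest control, S592, was level with S598.

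Psma4 read 107, 96.1 and 101 in the controls and 92.4, 89.1 and 97.0 in the knockouts (log2 fold change −0.12, adjusted p = 0.489). The groups overlapped, with S599 just above S592. At the other end, Psma8 encodes a germ-cell form of an alpha subunit and was barely detected. It had 7, 2 and 10 reads in the controls and 4, 7 and 11 in the knockouts. With totals of 19 and 22 reads, no difference was detectable at this depth (log2 fold change 0.06, 95% interval −0.71 to 0.83). The remaining alpha genes Psma1, Psma2, Psma3 and Psma6 had log2 fold changes from −0.12 to 0.04.

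The core beta genes stood lower in S598 and S599 than in the controls, but S595 did not. Their summed level was 602, 554 and 593 CPM in the controls, and 583, 510 and 499.8 in the knockouts. Knockout S595 thus lay inside the range of the controls. All 7 log2 fold changes were negative, with a median of −0.13. That median was 0.01 with S595 as the only knockout library, −0.07 without control S591, −0.09 without knockout S599, and −0.20 without control S592 or knockout S595. One of the 7, Psmb5, had an unadjusted p under 0.05 (14.3%, against 12.0% of all genes that were lower).

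Psmb5 (ENSMUSG00000022193) encodes the subunit with the chymotrypsin-like site, the main target of proteasome inhibitor drugs. It read 57.5, 58.7 and 71.5 CPM in the controls and 57.9, 46.5 and 45.5 in the knockouts. Knockout S595 lay among the controls, so the groups overlapped. The means were 62.6 ± 7.79 and 49.99 ± 6.87 (SD, n = 3 each), and the log2 fold change was −0.32 (SE 0.14, limma adjusted p = 0.247). Its 95% interval ran from 0.643-fold to 0.998-fold.

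Psmb6 encodes the subunit with the caspase-like site. It read 105, 103 and 91.8 CPM in the controls and 93.4, 80.2 and 84.1 in the knockouts, with S595 just above control S594. The log2 fold change was −0.22 (SE 0.10, adjusted p = 0.288). Psmb7, with the trypsin-like site, read 109.5, 94.0 and 93.7 in the controls and 99.6, 87.9 and 90.2 in the knockouts. Its log2 fold change was −0.10 (SE 0.10, adjusted p = 0.656), and the overlap between groups was wider than for Psmb6.

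Of the beta subunits without a catalytic site, Psmb2 had the smallest p. It read 55.5, 45.3 and 59.6 CPM in the controls and 55.2, 42.3 and 40.2 in the knockouts (log2 fold change −0.22, SE 0.16, adjusted p = 0.480). Control S592 was close to S598, and S595 was close to S591. Psmb1 was nearest to no difference, at 94.4, 96.5 and 96.6 in the controls and 100.5, 94.1 and 90.0 in the knockouts. Its log2 fold change was −0.02 (adjusted p = 0.938), or 0.01 after quantile scaling. Psmb3 and Psmb4, given after their values were seen, had log2 fold changes of −0.13 and −0.06.

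The inducible subunits that replace the catalytic ones had larger negative log2 fold changes. Psmb8, the counterpart of Psmb5, read 44.2, 48.5 and 58.2 CPM in the controls and 34.2, 32.7 and 36.1 in the knockouts. Its groups did not overlap, and its log2 fold change was −0.53 (SE 0.13, limma adjusted p = 0.119). Psmb10, the counterpart of Psmb7, read 35.3, 32.8 and 38.7 in the controls and 26.2, 23.0 and 23.99 in the knockouts (log2 fold change −0.52, SE 0.12, adjusted p = 0.111). DESeq2 called both (adjusted p = 0.0379 for Psmb8 and 0.0347 for Psmb10), and limma called Psmb8 without control S591 (adjusted p = 0.0472). Over all genes DESeq2 called 894 and limma without S591 called 671, against 3 by limma on all 6 libraries. Psmb8 and Psmb10 are expressed by leukocytes. All 8 macrophage markers above had negative log2 fold changes too, while all 6 T cell and thymocyte markers had positive ones. The part of these cell types in the levels of Psmb8 and Psmb10 was not tested.

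Whether inducible and constitutive counterparts differed by unequal amounts was tested on their ratio within each library, for 2 ratios. The ratio of Psmb10 to Psmb7 was 0.322, 0.349 and 0.413 in the controls and 0.264, 0.262 and 0.266 in the knockouts. All knockout ratios were below all control ratios, and the exact two-sided permutation p was 0.1, the smallest that 3 against 3 libraries allow (adjusted over both ratios, 0.2). The ratio of Psmb8 to Psmb5 was 0.768, 0.826 and 0.813 in the controls and 0.590, 0.704 and 0.793 in the knockouts. S599 lay within the controls, and the exact permutation p was 0.2. Psmb9 was not analysed here.

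**Figure D3:**
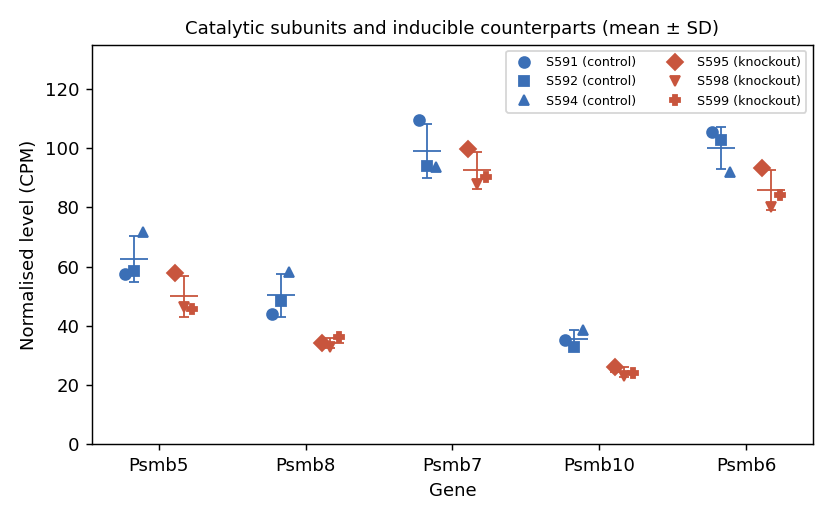
Normalised level (y axis, CPM) of the catalytic core genes Psmb5, Psmb7 and Psmb6 and of the inducible Psmb8 and Psmb10 in each library, with mean ± SD by group (n = 3). The groups are apart for Psmb8 and Psmb10 and overlap for Psmb5, Psmb6 and Psmb7.

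The ATPase genes, which encode the ring that unfolds substrates and opens the gate, gave a median close to 0 that depended on the libraries included. Their summed level was 548, 538 and 537 CPM in the controls and 558, 506 and 479 in the knockouts. The knockouts spread to both sides of the controls, with S595 above all 3. All 6 log2 fold changes were negative, with a median of −0.06, but that median was 0.06 with S595 as the only knockout library and −0.14 without it. All 6 intervals lay within 1.5-fold.

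Psmc1 had the smallest p of the ATPases. It read 98.9, 91.4 and 93.7 CPM in the controls and 95.03, 84.9 and 76.0 in the knockouts (log2 fold change −0.15, SE 0.11, limma adjusted p = 0.472). Psmc5 read 73.3, 78.0 and 65.5 in the controls and 78.4, 63.3 and 58.6 in the knockouts (−0.12, adjusted p = 0.661). In both genes S595 lay at or above most control values and S599 below all of them. Psmc2 read 96.9, 91.1 and 89.7 in the controls and 96.1, 88.1 and 81.6 in the knockouts (−0.07, adjusted p = 0.751). Psmc4 was closer still to no difference, at 68.5, 67.4 and 74.3 in the controls and 73.6, 66.2 and 65.7 in the knockouts (−0.03, adjusted p = 0.880). Psmc6 was the 1 ATPase for which S595 was the lowest knockout library and S599 the highest, at 87.6, 96.5 and 103 in S595, S598 and S599. It is named after its values were seen.

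The Psmd genes, the largest class at 14 of the 35 members, held 4 of the 5 members with an unadjusted p under 0.05. All 4 were lower, which is 28.6% of the Psmd genes, against 12.0% of all genes. The summed level of the Psmd genes was 1125, 1101 and 1116 CPM in the controls and 1045, 916 and 963 in the knockouts. The groups did not overlap. The control mean was 1114 ± 12.1 and the knockout mean 975 ± 65.4 (SD, n = 3 each), a ratio of 0.875. Of the 14 log2 fold changes 13 were negative, with a median of −0.15, and −0.04 with S595 as the only knockout library. Leaving out control S592 gave −0.13, where the core beta median was −0.20. For 6 of the 14, every knockout library lay under every control, against 14.2% of all genes.

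**Figure D4:**
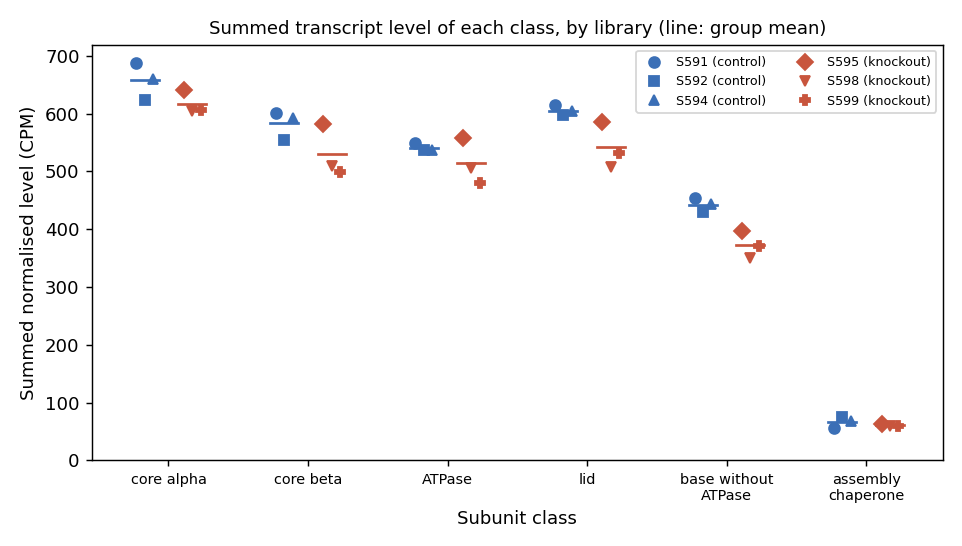
Summed level (y axis, CPM) of each subunit class in each library, with a line at the group mean; the Psmd genes are shown as lid, base without ATPase and assembly chaperones. Groups are apart for the lid and for the base without ATPase, and overlap for the other classes.

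Among these, the 3 base subunits that are not ATPases were lowest relative to the controls. They summed to 455, 430 and 443 CPM in the controls and 396, 349 and 371 in the knockouts, a ratio of 0.841. Psmd2 (ENSMUSG00000006998), a scaffold of the base that takes part in substrate reception, read 215, 209 and 227 in the controls and 190.1, 165 and 177 in the knockouts. Its groups were apart, with S598 lowest. The log2 fold change was −0.29 (SE 0.10, limma adjusted p = 0.164), with a 95% interval of 0.698-fold to 0.955-fold.

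Psmd1 (ENSMUSG00000026229), the other large scaffold of the base, read 148, 155 and 139 CPM in the controls and 130.3, 122 and 129 in the knockouts. Its groups were apart too, and the log2 fold change was −0.21 (SE 0.09, adjusted p = 0.246). The ubiquitin receptor gene Psmd4 read 91.6, 65.5 and 77.0 in the controls and 75.7, 63.0 and 64.9 in the knockouts. The controls spread widely and S592 lay beside the lower knockouts, so its log2 fold change of −0.19 (SE 0.14) had an adjusted p of 0.499.

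The 8 lid genes summed to 614, 597 and 605 CPM in the controls and 586, 507 and 532 in the knockouts, with the groups apart. All 8 log2 fold changes were negative, with a median of −0.14. Psmd8 (ENSMUSG00000030591), a structural lid subunit, had the largest difference. It read 130.3, 122 and 129.5 in the controls and 106, 80.8 and 108 in the knockouts, with S598 well below the rest. The log2 fold change was −0.38 (SE 0.13, adjusted p = 0.171). Without knockout S598, or without control S594, neither Psmd8 nor Psmd2 had an unadjusted p under 0.05.

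Psmd14 encodes the metalloprotease that removes ubiquitin chains. It read 51.3, 55.2 and 49.7 CPM in the controls and 50.7, 43.5 and 45.8 in the knockouts, with S595 between the controls (log2 fold change −0.15, SE 0.10, adjusted p = 0.445). Psmd11, a scaffold subunit of the lid, read 78.3, 78.5 and 74.5 in the controls and 74.3, 66.9 and 67.4 in the knockouts. Its groups were apart by less than 1 CPM, between S594 and S595, and the log2 fold change was −0.15 (SE 0.09, adjusted p = 0.405). Psmd3, Psmd6, Psmd12 and Psmd13 had log2 fold changes from −0.21 to −0.06. Psmd7, the partner of Psmd14, read 80.6 ± 1.597 and 80.7 ± 8.64 in controls and knockouts, and is named after its values were seen.

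The 3 assembly chaperones gave unlike values. Psmd10 (ENSMUSG00000031429), which encodes gankyrin and is also studied as an oncogene, had the most negative log2 fold change of all members. It read 15.9, 21.3 and 19.5 CPM in the controls and 13.5, 13.6 and 13.6 in the knockouts. The knockouts were nearly identical, and all lay below the lowest control, S591. The log2 fold change was −0.44 (SE 0.15, adjusted p = 0.163), from 86 to 158 reads per library. Without control S592 or S594 its unadjusted p was no longer under 0.05. Psmd5 read 27.6, 36.7 and 31.2 in the controls and 32.5, 32.1 and 30.4 in the knockouts, and Psmd9, named after its values were seen, stood at 15.3 ± 2.61 and 15.2 ± 1.51. Their log2 fold changes were 0.00 each (0.0016 and −0.0022), and the sign of Psmd5 depended on the setting.

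Subunits of the finished particle are needed in fixed proportions, and their transcripts can be compared per length. Mean levels over the 6 libraries were divided by the length of the longest principal transcript (GENCODE M21, GRCm38), which may differ from the transcripts counted. The lowest values per kilobase, apart from Psma8 at 0.609, were those of the 3 chaperones: 5.87 CPM per kilobase for Psmd9, 7.22 for Psmd5 and 11.4 for Psmd10. The other 31 genes ran from 25.7 (Psmd11) to 117 (Psmb6), with a median over all 35 of 52.6. The alpha gene Psma7 stood at 83.7 and the ATPase gene Psmc4 at 48.1. These 35 genes lie on 16 chromosomes. Exons of Psmb7, Psmc3, Psmd1 and Psmd13 overlap a listed gene on the opposite strand (Nek6, Slc39a13, Htr2b and Sirt3), and with no strand setting given, reads of such pairs cannot be told apart. The 4 pseudogenes named after a member, of Psmb5, Psmb6 and Psmb7, are not among the listed genes. Pseudogenes annotated under other names were not searched for. Reads of any subunit are uncertain to the extent that such copies share them.

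The other genes of the pathway, 33 in 6 lists, gave 0 calls by limma over all genes. The 4 inducible genes (Psmb8, Psmb10, Psme1 and Psme2) had a median log2 fold change of −0.39. The knockout libraries lay below all controls for 4 of 4, against 14.2% of all genes, and 3 of 4 were lower at an unadjusted p of 0.05, against 12.0%. Among the 5 genes for core assembly, Pomp, which encodes the chaperone that matures the beta ring, read 73.8, 75.6 and 75.004 CPM in the controls and 70.7, 66.7 and 67.2 in the knockouts. Its groups were apart by a small step (log2 fold change −0.13, SE 0.08, adjusted p = 0.427). Psmg3, of the chaperone pairs that start the alpha ring, was low and variable at 6.83 ± 1.69 and 5.29 ± 1.54. The core assembly median was −0.13, with 3 negative and 2 positive and none under an unadjusted p of 0.05.

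Receptors and deubiquitinases bound to the regulatory particle gave a median of −0.09 over 4 genes. Sem1, a small lid subunit outside the naming rule, read 69.0, 75.6 and 78.8 CPM in the controls and 66.6, 64.6 and 60.5 in the knockouts, apart by the margin between S591 and S595 (log2 fold change −0.22, SE 0.10, adjusted p = 0.262). The ubiquitin receptor gene Adrm1 stood at 60.1 ± 5.33 and 53.4 ± 5.34 (adjusted p = 0.462). Of the 3 other activators and inhibitors, the median was −0.02, Psme3 stood at 60.4 ± 2.17 and 55.4 ± 10.5, and Psmf1 at 24.9 ± 2.89 and 24.5 ± 1.47.

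The genes of the transcriptional axis that supplies proteasome genes gave values of both signs. Nfe2l1 itself averaged 380.3 ± 22.9 CPM in controls and 364 ± 15.1 in knockouts (log2 fold change −0.06, limma adjusted p = 0.781), and is named after its values were seen. Ddi2, the protease that releases its product, read 139.9, 165 and 166 in the controls and 131, 131 and 138 in the knockouts. The knockouts lay just under the lowest control (log2 fold change −0.23, SE 0.10, adjusted p = 0.256). Ngly1, the deglycosylase that acts on the same product, read 44.7, 41.5 and 32.8 in the controls and 48.3, 53.1 and 54.3 in the knockouts. It was the 1 gene of the 33 that was higher at an unadjusted p of 0.05, where 8.04% of all genes were. Its log2 fold change was 0.39 (SE 0.13, limma adjusted p = 0.176). Over the 7 genes of this list the median was −0.08, with 5 negative and 2 positive.

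Among the 10 genes for ubiquitin supply and shuttling the median was −0.08, with 7 negative and 3 positive, and none had an unadjusted p under 0.05.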

How the data were processed

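Libraries were prepared with a TruSeq kit from RNA scoring 7.9 or more for integrity, per the labels' protocols. Tools named in the submitters' processing notes, with no role for any, are Bowtie 0.12.7, RSEM 1.16, cutadapt 1.6.1, CASAVA 1.8, edgeR and limma, and the build is NCBIM37. The annotation and any strand setting: not given in the sources used here. What the authors deposited is a linear, normalised signal for each gene in every library. By the values themselves it is a CPM of reads plus 0.5 over a library size scaled by TMM, and 100% of values gave whole reads at a tolerance of 0.01. Listed genes exceed 1 CPM in at least 3 libraries. Columns name a group and a library, and not a replicate.

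Symbols were matched by Ensembl identifier for 13828 of 14298 genes. Limma 3.58.1 (R 4.3.3) was fitted to log2(value + 1) with a variance trend over all genes and 6 libraries, genotype as the 1 factor, two-sided, with Benjamini-Hochberg adjustment and a threshold of 0.05. A minimum of 1 CPM in 3 libraries removed 0 genes. The fit was tested on simulated data. Recovered reads were used for edgeR 4.0.16, limma-voom and DESeq2 1.42.0. Chi-square per degree of freedom within groups ran from 13.0 to 35.6, so no pair of libraries within a group looks like a duplicate; pairs across groups were not compared.

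The members and lists were chosen with earlier results of these data known. Values in every library are given for Psmb5, Psmb6, Psmb7, Psmd4, Psmd11 and Psmd14, for the 3 smallest p and both extremes of each class, and means or values for the 2 smallest p of each pathway list. For the list of ubiquitin supply and shuttling, values of single genes are not reported here. Other genes are said to be named after their values were seen, or given as ranges.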

Additional observations from a re-analysis of the deposited data

How the results depend on the processing

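No paired analysis was possible because the columns carry no replicate number, so the replicate block was not run. The count of members called stayed at 0 under all 17 other fits, with a smallest adjusted p of 0.0702 (limma, without control S591). Over all genes, limma called 3, DESeq2 894, the fit without S591 671, without S595 6, without S594 2, without the variance trend 1, and edgeR, limma-voom, both smaller pseudocounts, the higher filter and the other fits with fewer libraries 0. The 5 members lower at an unadjusted p of 0.05 became 3 by DESeq2, median-ratio scaling, quantile normalisation or no variance trend, 0 without S598 and S599, and 1 to 7 with 1 library left out (1 without S598, 2 without S594, 3 without S592 or S599, 7 without S595). Members apart were 7, or 6 after quantile normalisation. Without S598 and S599 the medians were −0.018 (all members), 0.011 (core beta), 0.062 (ATPase) and −0.039 (Psmd). With 1 library left out the ATPase median ran from −0.14 to −0.020. The chaperones alone had a median of −0.0022. Leaving out Psma8, an alternative chosen after seeing the data, gave −0.12 for core alpha.

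Of 32 genes tracked, 20 kept their sign in every fit. Without S598 and S599 the sign turned for Psma8 (−0.19), Psmb1 (0.068), Psmb2 (0.053), Psmb7 (0.011), Psmc1 (0.0063), Psmc2 (0.054), Psmc4 (0.071), Psmc5 (0.12), Psmg3 (0.067) and Psme3 (0.16). It turned for Psmd5 by edgeR (−0.0092) and limma-voom (−0.0065), for Psmf1 by limma-voom (0.0025) and quantile normalisation (0.042), and for Psmb1 by the latter (0.014). With 1 library left out, ranges crossing 0 were −0.20 to 0.20 (Psma8), −0.058 to 0.021 (Psmb1), −0.085 to 0.0092 (Psmc4), −0.092 to 0.11 (Psmd5) and −0.095 to 0.064 (Psmf1). The cause was not tested.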
